A study of Mus musculus with 12 samples.

Results

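LINE elements (long interspersed nuclear elements) covered 1674 of the 67822 windows in which H3K27ac was counted in mouse forebrain microglia. A window was counted as a LINE window when the deposited detailed annotation of its centre named a LINE and its broad annotation was intronic or intergenic. They made up 2.47% of all windows and 3.37% of the 49652 intronic and intergenic windows, of which 39451 named no repeat and serve below as the non-repeat windows. The 12 libraries formed 4 groups of 3, H3K27ac chromatin immunoprecipitation (ChIP) and input chromatin from wild-type mice on a C57BL/6N background, and the same pair of assays from Nlrp3-/- mice, the Cias1 knockout from Millennium Pharmaceuticals. The Nlrp3-/- mice are called the knockout below. Per the labels, all libraries came from CD11b-positive cells drawn with magnetic beads from myelin-depleted forebrain, with no further treatment named and no age or sex given. The labels do not say whether the replicates of a group were separate animals, so the p-values measure the spread between these libraries, which may be technical.

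LINEs are retrotransposons that copy themselves through an RNA intermediate and have no long terminal repeats. Most copies in a genome are truncated, and only young L1 copies, in the mouse some of those named L1Md, still move. Names beginning with L1_Mus, L1_Mur, L1VL and Lx belong to rodent lineages of L1, names such as L1MA to L1ME mark older mammalian L1, and HAL1 is an L1 relative that carries only the first open reading frame. L2, CR1 (whose mammalian copies include L3) and RTE-X are ancient families that no longer move in mammals. H3K27ac is a histone H3 tail acetylation found at promoters and enhancers in use, and old repeat copies are known to have contributed some enhancers of nearby genes. NLRP3 assembles an inflammasome, in which caspase-1 matures interleukin-1β.

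Total depth was 3726550 to 5028129 tags per H3K27ac library. LINE windows took 33354 to 45202 of these, with a median of 10 to 13 tags per LINE window. Total input depth was 3287009 to 6961590 tags, with 4192 to 9384 in LINE windows and a median of 2 to 5 per window. Tags at the promoter of the targeted gene, Nlrp3, numbered 271 to 318 in the wild-type H3K27ac libraries and 18 to 59 in the knockout libraries. Wild-type replicate 1 held 0 tags at 3 Y-linked promoter windows, where the other H3K27ac libraries held 183 to 239. The 2 LINE windows called between genotypes are therefore given without it as well. Other results include it, some of them with a range over each replicate left out. Promoter windows of 12 of 12 microglial marker genes lay above input, at a median ratio of 11.0. Of the marker promoters of other brain and blood cells, 0 of 9 for monocytes and neutrophils and 0 of 8 for lymphocytes had a window. Oligodendrocyte markers had one for 5 of 10 genes at a median ratio of 2.97, all but Olig1 and Pdgfra above input. Endothelial and mural markers had one for 4 of 8 at 3.11, all but Cldn5 and Flt1 above input. The highest ratios of these 2 sets, 7.88 and 7.48, exceeded the lowest microglial ratio, 4.84. Border macrophage markers had one for 3 of 8 genes, neuronal for 1 of 10 and astrocyte for 1 of 8, none of them above input. The part of those cells in the values below was not tested.

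Reference sequence was at hand for LINE windows whose centre lay inside a RefSeq promoter interval, which runs from 250 bases before to 50 bases after a gene start. The 3 of them with the highest H3K27ac level are shown to let the marked sequence be read beside its values. Each is a promoter of a predicted non-coding gene on GRCm38.p6, the assembly behind mm10, printed 5′ to 3′ with motif matches in capitals.
Gm41309: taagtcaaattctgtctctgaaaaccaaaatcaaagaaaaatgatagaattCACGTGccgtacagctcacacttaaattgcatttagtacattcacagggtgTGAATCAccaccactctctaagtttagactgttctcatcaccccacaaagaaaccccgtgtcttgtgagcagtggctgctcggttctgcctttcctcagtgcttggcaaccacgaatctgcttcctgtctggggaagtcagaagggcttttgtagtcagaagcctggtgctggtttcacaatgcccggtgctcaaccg
Gm43837: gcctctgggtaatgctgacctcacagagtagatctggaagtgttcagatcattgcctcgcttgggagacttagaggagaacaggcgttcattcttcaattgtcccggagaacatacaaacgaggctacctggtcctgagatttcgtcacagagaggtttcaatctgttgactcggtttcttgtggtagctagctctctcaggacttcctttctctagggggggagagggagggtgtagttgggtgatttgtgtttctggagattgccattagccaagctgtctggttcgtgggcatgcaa
Gm31619: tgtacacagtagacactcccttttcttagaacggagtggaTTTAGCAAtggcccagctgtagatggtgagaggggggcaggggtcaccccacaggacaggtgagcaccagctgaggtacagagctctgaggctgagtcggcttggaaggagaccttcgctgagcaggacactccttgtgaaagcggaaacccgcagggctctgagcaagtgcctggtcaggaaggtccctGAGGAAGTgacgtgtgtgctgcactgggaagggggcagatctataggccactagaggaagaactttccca
The Gm41309 interval is chr15:38602237-38602536 on the minus strand, and the centre of the window chr15:38601838-38602838, annotated as L1MB7, falls at its base 199. It holds an AP-1 motif (TGANTCA) from base 103 and an E-box (CACGTG) from base 52. The Gm43837 interval is chr5:64377703-64378002 on the plus strand, with the centre of an L1M2 window at base 246. None of the motifs searched, PU.1 (GAGGAAGT), AP-1, C/EBP (TTGCNNAA), RUNX (TGTGGTT) and the E-box, all on both strands, had its letters in that interval. The Gm31619 interval is chr2:167589432-167589731 on the minus strand, with the centre of an L2a window at base 211, and it holds the PU.1 letters from base 231 and the C/EBP letters from base 41. Among 32851 RefSeq promoter intervals of this length, 3.20% held the PU.1 letters, 7.81% those of AP-1, 10.8% those of C/EBP, 5.27% those of RUNX and 7.15% the E-box. A match is a description of the letters and not a measured binding site.

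H3K27ac at these 3 windows was high in both genotypes. The L1MB7 window at Gm41309 held 167, 207 and 221 tags in the wild-type libraries and 248, 251 and 196 in the knockout libraries, or 47.7 ± 3.96 and 48.1 ± 7.63 CPM (CPM, tags scaled to an equal total of all tags per library; SD, n = 3). The L1M2 window at Gm43837 held 98, 108 and 146 wild-type tags and 130, 159 and 59 knockout tags. At the L2a window of Gm31619 the wild-type counts were 65, 71 and 81 and the knockout counts 63, 67 and 82. The genotypes overlapped at all 3 windows, while the 6 input libraries held 0 to 11 tags at each.

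Of the LINE windows, 1227 lay on L1, 355 on L2, 80 on CR1, 11 on RTE-X and 1 on RTE-BovB. Within L1, 489 windows carried names from L1MA to L1ME, 469 Lx, 143 other L1 names, 73 L1_Mus, L1_Mur or L1VL, 30 HAL1, 15 L1_Rod or MusHAL1 and 8 L1Md. The windows spread over 114 element names, and the 10 names with most windows held 794 (47.4%), led by Lx8 with 143, L2a with 121, L2 with 114 and Lx7 with 85. Introns held 911 and intergenic sequence 763, and their nearest gene starts, 1388 genes in all, lay at a median of 22601 bp, against 17993 bp for non-repeat windows. The L1_Mus, L1_Mur and L1VL windows lay farther out, at 36164 bp, and only 34.2% of them were intronic. The X chromosome held 2.15% of LINE windows and 1.23% of non-repeat windows. Of the LINE windows, 417 (24.9%) overlapped another window and so shared tags with it, against 32.3% of the non-repeat windows.

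The deposited table names the site lists each window was merged from, 1 for each genotype, taken from accessibility data. Both lists named 1223 LINE windows (73.1%), the wild-type list alone named 260 (15.5%), and 191 (11.4%) came from the knockout list alone. For non-repeat windows the last 2 shares were 17.4% and 9.06%. Of the 3 largest families, 81.2% of CR1, 76.6% of L2 and 71.4% of L1 windows stood in both lists, and 10 of 11 RTE-X windows did. Windows in both lists had a median H3K27ac over input of 2.94, against 1.62 for the wild-type list alone and 1.44 for the knockout list alone. In the fit described below, 55 of 95 tested LINE windows of the wild-type list alone had a positive knockout over wild-type log2 fold change (median 0.10), as did 34 of 58 of the knockout list alone (median 0.09). Over all tested windows of these lists 50.2% and 52.4% were positive.

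H3K27ac was counted above input at 55.9% of LINE windows. The median LINE window held 2.58 CPM of H3K27ac and 0.779 CPM of input, close to the non-repeat windows with 2.55 and 0.721. Its H3K27ac over input, as the ratio of mean CPM with 0.5 CPM added to both, was 2.45, against 2.53 for non-repeat, 2.26 for LTR (long terminal repeat) and 2.18 for SINE (short interspersed element) windows. Fitted over all windows without a filter on low counts (edgeR's quasi-likelihood test, Benjamini-Hochberg adjusted p under 0.05, scaled to total tags), 936 of 1674 LINE windows were higher in H3K27ac than in input. The background was 61.1% of all windows with a tag, promoters included, and non-repeat windows gave 55.7%. In the same fit 38 LINE windows were lower than input, where 3% of all windows were. A filter on low counts left 531 LINE windows, of which 528 were called higher. It kept windows through their high H3K27ac, so that they had to differ, and the background there was 99.1%. These counts depend on the scaling. With TMM (trimmed mean of M values) normalization, which sets the bulk of windows near 0, 39235 windows passed the filter in place of 26803, so the windows tested changed as well. Of 943 LINE windows then tested 64 were called higher and 456 lower. The median log2 ratio was -0.50 over all windows tested with TMM and -1.07 over LINE windows. With total tags it was 3.64 and 3.32 after the filter, and 2.15 and 1.73 without one.

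Median levels ranged widely over the families. CR1 windows had the highest median ratio, 3.71, with 54 of 80 called above input, followed by RTE-X at 3.22 with 6 of 11. L1MA to L1ME windows had 2.68 (292 of 489 above input), L2 2.60 (210 of 355), HAL1 2.59 (19 of 30), L1_Mus, L1_Mur and L1VL 2.28 (38 of 73) and Lx 2.04 (227 of 469). The 8 L1Md windows, all named L1Md_F, L1Md_F2 or L1Md_F3 and none after the mobile A, Tf or Gf types, had a median of 0.899, and 1 of them was called above input, the L1Md_F window nearest Serpinb13 with 6 to 15 H3K27ac tags per library. How tags that match several near-identical copies were placed is not given in the sources used here, so counts at young L1 are uncertain. Among names with many windows the median ratio ranged from 1.78 at Lx7 (85 windows) to 3.84 at L3 (59 windows), a CR1 element, with 3.33 at L1MB3 and 2.92 at L2b.

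To compare LINE with non-repeat windows over replicates, tags were summed over the windows of a group. The log2 of H3K27ac over input was set against the same value for non-repeat windows in each of 6 pairs of libraries. A pair shared the genotype and the replicate number in the titles. The LINE ratio of sums was 5.94 ± 0.49 in wild type and 6.79 ± 0.48 in the knockout (SD, n = 3 each), below the non-repeat 6.80 ± 0.63 and 7.74 ± 0.65. The LINE difference was negative in 6 of 6 pairs, at a mean of -0.19 ± 0.017 on the log2 scale (0.876-fold; exact sign-flip permutation test, two-sided, adjusted p = 0.0402 over 9 groups; 6 pairs of one sign give the smallest p this test allows). The size of this deficit rested on how windows were taken. It shrank to -0.04 with medians over windows, to -0.04 without overlapping windows and to -0.01 in intergenic windows alone (exact permutation adjusted p = 0.812), and grew to -0.31 in introns.

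In the sums over all windows, Lx and the L1_Mus, L1_Mur and L1VL group carried the lowest values of the LINE groups. Lx windows lay at -0.42 ± 0.038 (0.745-fold, below 0 in 6 of 6 pairs) and the L1_Mus, L1_Mur and L1VL windows at -0.62 ± 0.084 (0.650-fold, 6 of 6), both with an exact permutation adjusted p = 0.0402. Their sign held in each alternative run, with Lx between -0.49 and -0.29 and the other group between -0.68 and -0.21. That smallest size came without overlapping windows, which took out 3 of the 73 windows of the group and 32.3% of the non-repeat windows. HAL1 then lay lower than the group, at -0.28. Neither Lx nor the L1_Mus, L1_Mur and L1VL group passed in intergenic windows alone (exact permutation adjusted p = 0.0562 for both), at -0.29 for Lx and -0.68 for the other group. Before adjustment both stood there at the smallest p this test allows. This miss therefore came from the adjustment over groups and shows no change of sign. CR1 windows lay above the non-repeat windows in 6 of 6 pairs, by 0.18 ± 0.075 (1.13-fold, adjusted p = 0.0402, exact permutation test), and by 0.16 to 0.59 in the alternatives. CR1 did not pass in introns alone (0.16, exact permutation adjusted p = 0.0625) or in intergenic windows alone (0.24, adjusted p = 0.121). L2, at -0.12 ± 0.044, passed the same test but turned positive with medians over windows (0.07), without overlapping windows (0.10) and in intergenic windows (0.34), so no direction is given for it. The other L1 names, at -0.20 ± 0.109, passed too and turned positive in 3 alternatives. L1MA to L1ME at -0.05 ± 0.072 and HAL1 at -0.03 ± 0.147 did not pass (adjusted p = 0.211 and 0.688, exact permutation test). L1MA to L1ME passed below 0 in introns (-0.17) and above 0 without overlapping windows (0.10). HAL1 passed below 0 without overlapping windows (-0.28) and above 0 with medians (0.27), so no direction is given for either. Differences between one LINE group and another were not tested. For scale, SINE windows lay at -0.38 ± 0.046 and LTR windows at -0.34 ± 0.024.

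**Figure D1:**
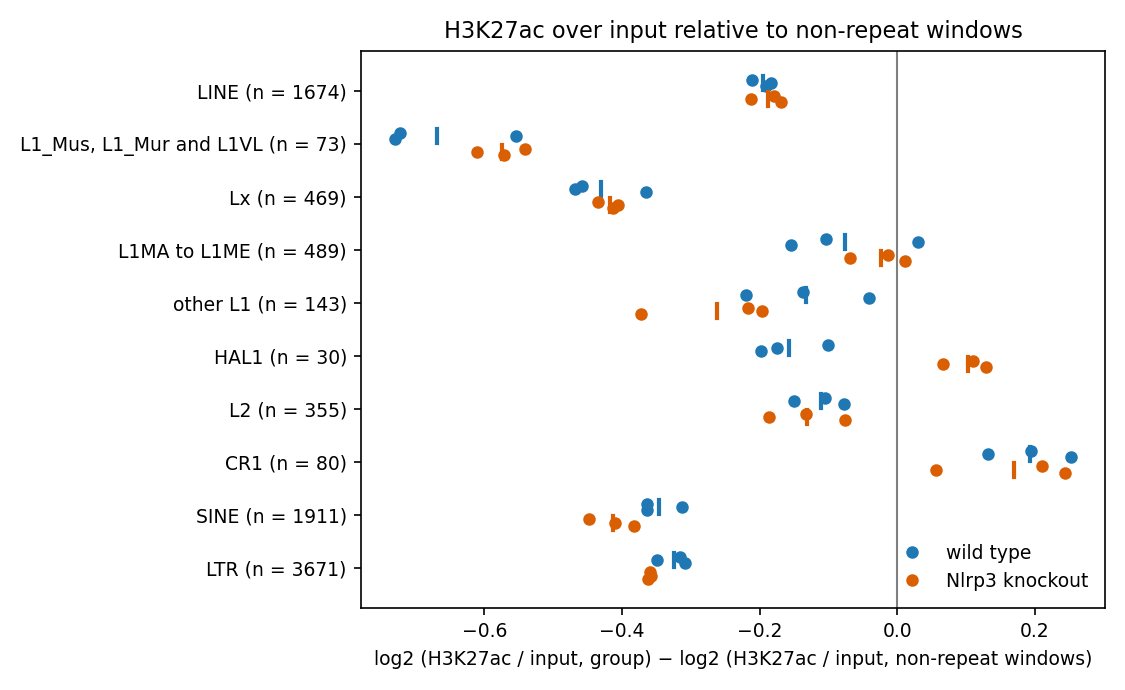
Each point is 1 pair of H3K27ac and input libraries of the same genotype and replicate number. The x axis is the log2 H3K27ac over input summed over the windows of a group minus that of non-repeat windows. Vertical ticks are the means of 3 pairs, and n is the number of windows. All 6 points of Lx and of L1_Mus, L1_Mur and L1VL lie below 0 and all 6 of CR1 above it, while HAL1 is split by genotype.

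On LINE windows the median H3K27ac over input fell from each distance bin to the next. On non-repeat windows it fell mainly past the first 5 kb from a gene start and changed little beyond. Within 5 kb of a start the median ratio of LINE windows was 3.11 (n = 214) and 60.3% were called above input. Beyond 100 kb the median was 1.76 (n = 195) with 44.6% above input. Non-repeat windows went from 3.46 with 64% to 2.25 with 52.5%. Between 5 and 20 kb the LINE windows had the higher values, 2.72 against 2.43, with 60.2% against 54.2% above input, and between 20 and 50 kb they had 2.45 against 2.37, with 56.1% against 53.97%. Between 50 and 100 kb the LINE median was higher, 2.25 against 2.18, and the share above input lower, 50.8% against 51.5%. These are descriptions over windows, not tests over libraries.

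**Figure D2:**
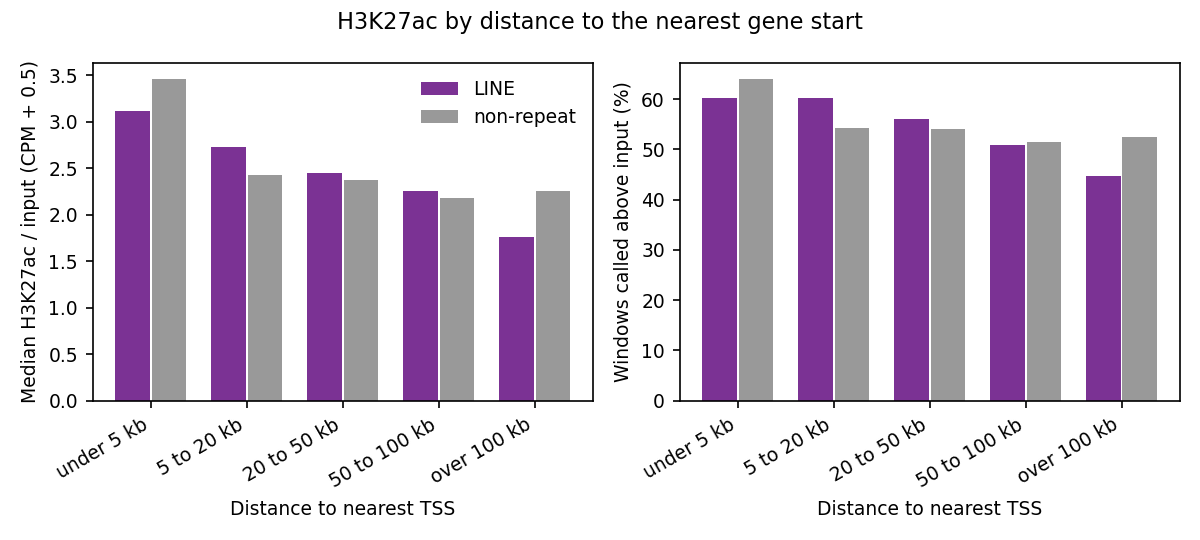
Bars give, for 5 bins of distance to the nearest transcription start site (TSS), the median ratio of H3K27ac to input CPM with 0.5 added to both (left) and the percentage of windows called above input (right), for LINE and non-repeat windows. Beyond 100 kb the LINE bars stand at 1.76 and 44.6%, below the non-repeat bars at 2.25 and 52.5%.

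The 10 LINE windows with the most H3K27ac, taken 1 per nearest gene, held 40.6 to 74.7 CPM, and none was called between genotypes. All of them except the L2 window nearest Sall1 overlapped another window and so shared tags with it, where 24.9% of all LINE windows did. The highest was an L1MA4 window at chr9:65541847-65542847, intergenic and 37740 bp from Plekho2, with 284, 351 and 367 wild-type tags and 309, 378 and 315 knockout tags against 2 to 11 in input. An Lx8 window at chr12:8520463-8521463, 18603 bp from Slc7a15, a gene of the amino acid transporter family, held 286, 234 and 304 wild-type and 340, 347 and 318 knockout tags, although it stood in the wild-type site list alone. The third was an L2a window at chr10:98880393-98881393 upstream of Atp2b1, a plasma membrane calcium pump, with 190 to 291 tags in the wild-type libraries and 261 to 293 in the knockout libraries. An L1MA5A window in intron 18 of Chd7, a chromatin remodeller, held 51.1 CPM. An L2 window at chr8:89396242-89397242 held 50.03 CPM, with 211, 184 and 291 wild-type and 295, 159 and 183 knockout tags. It lay 352580 bp upstream of Sall1, the transcription factor that maintains microglial identity, which was its nearest start. The remaining windows were nearest Incenp (Lx8), 4930459C07Rik (L1MCa), 2310043O21Rik (the L1MB7 window at Gm41309), Gm4285 (HAL1M8) and Mir6367 (L2). Scaled by TMM as in the fit below, genotypes overlapped at 8 of the 10. The exceptions were the Plekho2 window, lower in each knockout library, and the Gm4285 window, higher in each (adjusted p = 0.998 for both in edgeR's quasi-likelihood test). In CPM of all tags the genotypes overlapped at the Gm4285 window too, with 167 tags in wild-type replicate 1 and 216 in knockout replicate 3.

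Knockout and wild type were compared window by window with edgeR's quasi-likelihood test on 3 against 3 H3K27ac libraries, TMM normalization and Benjamini-Hochberg adjustment over the 40370 windows that passed its filter on low counts. Of the 929 LINE windows tested, 2 passed an adjusted p of 0.05, 1 in each direction, where 24 of all tested windows did (0.0595%). Median log2 fold changes were 0.001 over LINE windows and 0.004 over all tested windows, and 467 of 929 were positive. At an unadjusted p under 0.05 stood 35 LINE windows (3.77%, 22 higher and 13 lower in the knockout), against 4.69% of all tested. Scaled as in the fit, the 3 knockout libraries all lay above the 3 wild-type libraries at 52 LINE windows and all below them at 41. The backgrounds were 5.48% and 5.4% of tested windows.

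The window that rose was an L1_Mur3 element at chr9:60615273-60616273, in intron 9 of 15 of Lrrc49, a leucine-rich repeat protein gene. Its wild-type libraries held 0, 2 and 0 tags and its knockout libraries 59, 63 and 40, while input held 0 to 5 tags in either genotype. All 3 knockout libraries were high and the wild-type libraries nearly empty. Scaled to total tags the knockout over wild-type ratio was 69.6, with an exact 95% interval of 18.97 to 580 that covers counting error only, and the fitted log2 fold change was 5.89 (SE 0.79, adjusted p = 0.000865 in edgeR's test). The window stood in the knockout site list alone and overlapped no other window. It passed in all 13 alternatives, with fold changes from 5.34 to 8.66, and at 5.42 without wild-type replicate 1. The nearest window, 13609 bp away in an intron, held 15, 14 and 26 wild-type and 39, 60 and 34 knockout tags (log2 fold change 1.04, adjusted p = 0.998).

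The window that fell was an L2c element at chr6:48433428-48434428, in intron 4 of Zfp467, a zinc finger gene, 11162 bp from its start. It held 78, 55 and 73 tags in the wild-type libraries and 10, 22 and 0 in the knockout libraries. The groups did not overlap, and the fitted log2 fold change was -2.94 (SE 0.56, adjusted p = 0.0359). A non-repeat window that starts 353 bp before it and shares tags with it held 86, 68 and 67 against 14, 12 and 0 (log2 fold change -3.32), so the 2 windows are not separate events. The L2c call was lost without wild-type replicate 1, 2 or 3 or knockout replicate 1 (edgeR adjusted p = 0.321, 0.177, 0.0512 and 0.262), with the replicate number as a block (adjusted p = 0.0807) and in DESeq2 (adjusted p = 0.492), at fold changes from -3.16 to -2.78. Without overlapping windows it is not tested.

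Among windows that did not pass, those with the smallest p and groups apart are described by their tags. An intergenic L1_Mur3 window 19488 bp from Olfr111, an olfactory receptor gene, held 24, 30 and 2 wild-type tags and 57, 93 and 96 knockout tags (log2 fold change 1.90, adjusted p = 0.367). It passed without the filter on low counts (1.89, adjusted p = 0.00296 in edgeR) and in no other alternative. An L1M2 window in intron 18 of Fhad1, nearest to Efhd2, a calcium-binding protein gene, held 25, 40 and 24 against 80, 82 and 82 (1.24, adjusted p = 0.500). L1MA4 near Map2k3, a kinase upstream of p38, gave 1.01, and L1ME1 in intron 1 of Mapre2, a microtubule end-binding protein gene, gave 1.06. On the other side, an L2 window 13647 bp upstream of Itgam, which encodes the CD11b used to isolate the cells, held 45, 57 and 72 wild-type tags and 39, 42 and 25 knockout tags (log2 fold change -0.93, adjusted p = 0.998). L2a in 4831407H17Rik gave -1.19, L1M4c in intron 2 of Cds1 -0.70 and L3 near Mex3b -0.76. Scaled by TMM as in the fit, the 2 genotypes did not overlap at any of these windows, as the rule that picked them required. In CPM of all tags they overlapped at the L1M4c window in Cds1, with 56 tags in wild-type replicate 2 and 64 in knockout replicate 1.

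**Figure D3:**
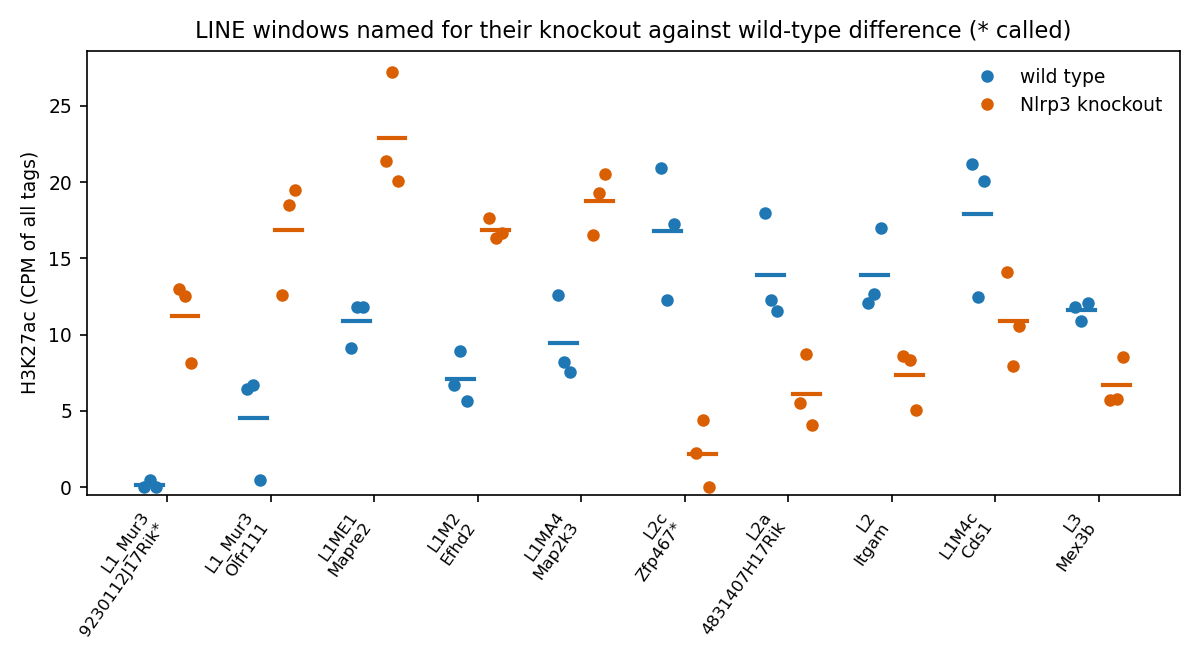
Points are the 3 wild-type and 3 knockout H3K27ac libraries at the LINE windows described above, in CPM of all tags on the y axis, with bars at the means; the element and nearest gene are under each pair and an asterisk marks the 2 windows called. The L1_Mur3 window nearest 9230112J17Rik, inside Lrrc49, is near 0 in wild type, and the L2c window in Zfp467 is low in the knockout.

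**Figure D4:**
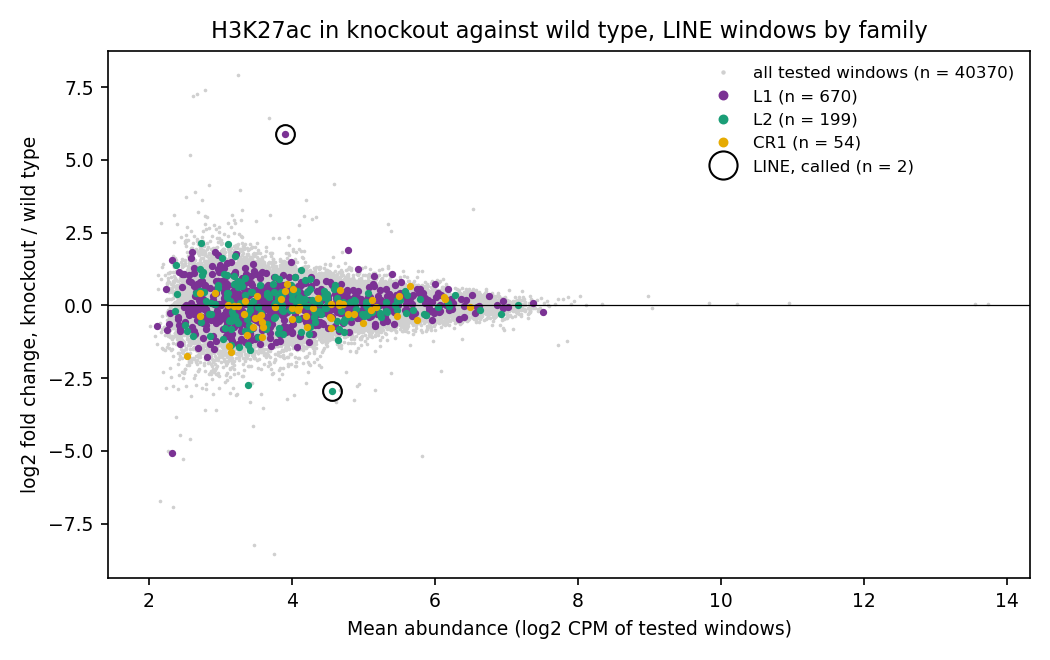
Each point is 1 window tested for knockout against wild type, with the mean abundance in log2 CPM on the x axis and the log2 fold change on the y axis; L1, L2 and CR1 windows are coloured over all 40370 tested windows in grey. The coloured points centre on 0, with medians of 0.02 for L1, 0.00 for L2 and -0.09 for CR1, and the 2 circled windows are those called.

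Sums over element names gave no call. The sums tested were those of repeat names and those of non-repeat intronic and non-repeat intergenic windows. Of 610 such sums tested for H3K27ac with edgeR, 0 passed an adjusted p of 0.05 (0%), against 38 with an unadjusted p below 0.05 (6.23%). LINE supplied 100 of the names, of which 54 were positive in the knockout, 5 had an unadjusted p under 0.05, and 0 passed here or in DESeq2. The smallest p among them was that of L1_Mur3 (22 windows), whose sums were 71.2 ± 3.81 CPM in wild type and 98.5 ± 6.55 in the knockout (SD, n = 3; log2 fold change 0.47, SE 0.13, adjusted p = 0.193 in edgeR's test). Without the called window in Lrrc49 its fold change was 0.30 (adjusted p = 0.690). Lx9 (58 windows) followed at 0.24 (adjusted p = 0.377), and Lx3_Mus (4 windows) at -1.24 (adjusted p = 0.573). Fold changes of the names with most windows were small, -0.02 for Lx8, 0.00 for L2a, -0.02 for L2 and 0.13 for Lx7.

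Input chromatin served as the control for differences that do not come from H3K27ac. In the 6 input libraries 9 of 382 sums, taken as for H3K27ac, were called between genotypes (2.36%), against 38 at an unadjusted p below 0.05 (9.95%). Of the 83 LINE names 0 were called in edgeR or DESeq2, and 8 had an unadjusted p under 0.05 in edgeR. Lx6 (20 windows) fell just short, with 23.003 ± 1.39 CPM of input in wild type and 14.8 ± 0.64 in the knockout (log2 fold change -0.47, adjusted p = 0.0509), while its H3K27ac fold change was 0.06. L1_Mus4 (5 windows) was at -0.92 (adjusted p = 0.0629) and L1Md_F3 (2 windows) at 0.76 (adjusted p = 0.0961). Scaled to total tags in place of TMM, where the median of all sums was -0.16, 3 LINE names passed as lower in the knockout, Lx6 and L1_Mus4 among them.

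As a share of all H3K27ac tags in windows, the wild-type libraries had 1.98%, 1.97% and 1.95% on LINE windows and the knockout libraries 2.04%, 1.98% and 1.96%. The means were 1.97 ± 0.019% and 1.99 ± 0.044%, and the groups overlapped (exact permutation test, two-sided, p = 0.4, adjusted p = 0.4 over 4 shares). No share could pass, since 3 against 3 libraries reach no p below 0.1. L1 took 1.41 ± 0.016% in wild type and 1.46 ± 0.033% in the knockout, L2 0.416 ± 0.017% and 0.403 ± 0.007%, and CR1 0.119 ± 0.003% and 0.113 ± 0.004%. CR1 was lower in each knockout library than in each wild-type library, at that smallest p of 0.1 in the exact permutation test. In input the LINE share was 1.60% to 1.63% in wild type and 1.46% to 1.48% in the knockout, so the input libraries did not overlap. That share was not computed for non-repeat windows. Mean H3K27ac over input was higher in the knockout on both, 5.94 and 6.79 on LINE windows and 6.80 and 7.74 on non-repeat windows (wild type first). The LINE value relative to non-repeat windows therefore differed by only 0.008 on the log2 scale between knockout and wild type (exact permutation p = 0.6). The genotypes overlapped in both ratios. Wild-type pair 1 had 6.47 and knockout pair 3 had 6.24 on LINE windows, against 7.49 and 7.02 on non-repeat windows. The difference of these ratios between genotypes was not tested.

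LINE windows lay near genes of each list of microglial and metabolic genes, and 0 of the 25 tested of these 43 windows were called between genotypes, against the background of 0.0595% of tested windows. Over all LINE windows 55.9% were above input, beside which the counts per list are to be read. Within 100 kb of 6 of 24 homeostatic microglial genes stood 11 LINE windows, 9 of them above input. The strongest were an L1MB5 window 5593 bp upstream of Csf1r, the receptor on which microglia depend for survival (16.6 CPM), an L1MC3 window near Mef2a, a transcription factor (16.0 CPM), and an Lx2 window near Cst3, a secreted protease inhibitor (14.2 CPM). Of 32 transcription factors of microglia and macrophages 12 had LINE windows nearby, 16 in all with 8 above input. They included an L4_B_Mam window of RTE-X 94589 bp from Maf (14.1 CPM), Lx7 in intron 8 of Nfkb1 (13.8 CPM) and L2b in intron 1 of Fli1 (5.56 CPM).

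Among 23 genes of disease-associated microglia 4 had LINE windows, 5 in all. The L1ME1 window 12659 bp upstream of Ctsd, a lysosomal protease, held 145, 122 and 132 wild-type tags and 129, 176 and 120 knockout tags. The L1MC5 window near Trem2, a lipid receptor, held 10 to 17 tags per library, and the Lx8b window in intron 16 of Itgam, nearest to Itgax, held 0 to 12. Inflammation and interleukin-1 genes had 6 LINE windows at 4 of 24 genes. The L2b window 18447 bp upstream of Tnfaip3, an inhibitor of NF-κB signalling, held 79, 126 and 128 wild-type tags and 149, 79 and 74 knockout tags, which overlap. L1VL4 near Tlr2 held 5.12 CPM and L1MC1 in intron 2 of Aim2, another inflammasome sensor, 1.60 CPM. Of 22 glutamine and glutamate genes 3 had LINE windows, an L3 window in intron 3 of the glutamate transporter Slc1a3 (6.14 CPM), L1M2 in intron 1 of Slc38a1 (0.870 CPM) and Lx5 near the cystine and glutamate antiporter Slc7a11, which held 2 H3K27ac tags over the 6 libraries. Of 20 genes that restrict LINEs and other retroelements, 1 had a LINE window, the L2a window 6955 bp upstream of Samhd1 with 9, 7 and 15 wild-type tags and 13, 18 and 32 knockout tags (log2 fold change 0.84, adjusted p = 0.998). LINE windows made up between 1.08% (retroelement restriction) and 3.68% (homeostatic) of all windows within 100 kb of the genes of a list.

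The 38 LINE windows below input had 9 to 177 input tags over 6 libraries and at most 55 H3K27ac tags. Lx supplied 14 of them, L2 9, L1_Mus, L1_Mur and L1VL 4, and L1MA to L1ME 4. At 10 of the 38 no H3K27ac tag was counted in any library, where a count of 0 allows up to 3 tags. The window with the most input was an L1Md_F3 element on an unplaced scaffold, nearest Pisd-ps3, with 23, 25, 18, 48, 26 and 37 input tags and 7, 11, 0, 16, 8 and 13 H3K27ac tags, the wild-type libraries given first.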

How the data were processed

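H3K27ac ChIP and input were measured in 12 libraries. The values are raw tag counts that the authors deposited, which per the file headers HOMER took without adjustment from windows of 1000 bp around merged accessible sites of mm10. A deposited score per site came with the table and described no result here. HOMER, DESeq2 and mm10 are named in the submitters' processing notes. For the aligner, duplicate handling and multiply matching tags, the methods were not given in the sources used here. Intervals and floors cover counting error only, as no molecular identifiers are named.

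Counts were fitted with edgeR 4.0.16 in R 4.3.3 and with DESeq2 1.42.0 as an alternative, after tests on simulated data. Groups came from titles. Per the labels' protocols, input was a part of the lysate used for immunoprecipitation. Which ChIP and input libraries belong together was taken from the genotype and number in their titles. Host genes of introns were found in the RefSeq table for 910 of 911 windows. Named windows are those called, up to 5 per direction by p among windows of at least median abundance with groups apart, the 10 strongest, and up to 3 genes per list. Named elements are the 10 with most windows and the 3 of smallest p. The members, lists and rules were chosen with earlier results of these data known. Alternatives changed the filter, scaling, tool, chromosomes, overlap, replicate block and each replicate. No mm10 genome was used here.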

Additional observations from a re-analysis of the deposited data

Results flagged for a closer look

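HAL1, with 30 windows, stood on opposite sides of the non-repeat windows in the 2 genotypes. Its log2 H3K27ac over input relative to non-repeat windows was -0.10, -0.17 and -0.20 in the wild-type pairs and 0.11, 0.07 and 0.13 in the knockout pairs, a difference of 0.26 (exact permutation test, p = 0.1, the smallest that 3 against 3 libraries allow). HAL1 windows held 198, 180 and 214 CPM of H3K27ac in the wild-type and 249, 224 and 186 in the knockout libraries, which overlap, and 28.4, 32.5 and 36.8 CPM of input against 29.2, 25.8 and 24.2. Without the strongest window, the HAL1M8 element nearest Gm4285, the difference between genotypes was 0.24, but all 6 pairs then lay below 0, at a mean of -0.33, so the opposite signs rest on that window. Of 9 groups compared in this way, HAL1 alone had opposite signs by genotype.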

How the results depend on the processing

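The count of 2 LINE windows called between genotypes became 1 with the replicate block and 1 without overlapping windows. It ranged from 1 to 2 when each replicate was left out, and was 2 or 3 in the other alternatives. In DESeq2 the count of 2 hides a change of window. The L2c window did not pass there (adjusted p = 0.492), and another LINE window was called lower. Replicate numbers did not pair the genotypes, since same-numbered libraries correlated between -0.0006 and 0.003 in their deviations from the group means; the block changed no other count of LINE calls, and left 528 windows above input. LINE names called in H3K27ac remained 0 in each alternative. In input they were 3 with total-tag scaling and 0 in the others. LINE windows called above input numbered 528 after the filter, 936 without it, 940 in DESeq2, 287 without overlapping windows, 64 with TMM scaling and 533 to 577 with a replicate left out. The knockout difference in the LINE share of H3K27ac tags, 0.026 percentage points, was -0.0018 without overlapping windows and 0.0025 to 0.045 with a replicate left out. The LINE ratio relative to non-repeat windows was -0.0073 in intergenic windows and -0.195 to -0.187 with a pair left out, where 5 pairs cannot pass 0.05. For L2 the same value was 0.065 with medians, 0.34 in intergenic windows and 0.10 without overlap. For L1MA to L1ME it was 0.054, 0.14 and 0.10 under these, and 0.012 between 20 and 100 kb from a start, against -0.17 in introns and -0.10 without the windows with most H3K27ac. For other L1 names it was 0.022 with medians, 0.016 without overlap and 0.13 between 20 and 100 kb. For HAL1 it was 0.27 with medians, 0.26 in intergenic windows and between -0.059 and 0.0064 with a pair left out, against -0.24 in introns, -0.28 without overlap, -0.65 between 20 and 100 kb and -0.23 without the windows with most H3K27ac. The cause of these changes was not tested. The distance range, the removal of windows with most H3K27ac and the 2 removals of single windows were chosen after seeing the data. With a median of 10 to 13 H3K27ac tags per LINE window, 89.7% of tested LINE windows had a fold change within 1 on the log2 scale, at a median SE of 0.54, which limits what single windows can show.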

Other observations

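Some genes were nearest to several LINE windows. Within 100 kb of a start, 1063 genes were the nearest gene of 1 LINE window, 154 of 2, 27 of 3, 3 of 4 and 3 of 5. The genes with 5 were Entpd1, which encodes the ectonucleotidase CD39 found on microglia, Clasp2, a microtubule plus-end protein gene, and Pag1, an adaptor of Src-family kinase signalling. They were singled out after the counts were seen. At each of them all 5 LINE windows were called above input, where 55.9% of all LINE windows were. At Entpd1 the windows lay on L1M4a1, L1MDa, L1MC3, HAL1 and Lx5 and held 4.84 to 38.4 CPM of H3K27ac. At Clasp2 the range was 2.79 to 29.6 CPM and at Pag1 3.57 to 19.5 CPM. Ccr1, a chemokine receptor gene, had 3 LINE windows, on Lx7, L1MB3 and L2c, at 21.8 to 29.3 CPM. At Bach2, a transcriptional repressor gene, the 3 LINE windows held 0.599 to 0.924 CPM and none was called above input.

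RTE-X, with 11 windows, ranged from 0.468 to 36.2 CPM. The highest, an L4_A_Mam window 25575 bp upstream of Psma1, a proteasome subunit gene, held 141, 144 and 98 wild-type tags and 232, 183 and 179 knockout tags, not called between genotypes. The next, L4_A_Mam nearest Aebp2, held 76, 91 and 101 against 89, 108 and 84.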
